A study of Mus musculus with 9 samples.

Results

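BV-2 cells that had received LPS for the first time, called unprimed (UP), were described as a single state by their transcript levels. LPS, lipopolysaccharide, is a component of the outer membrane of Gram-negative bacteria. The members are the 3 libraries whose titles name them unprimed 4, 5 and 6, of 9 libraries in the series, and they are referred to as UP 4, UP 5 and UP 6. UP cells had no first treatment and received LPS once at 100 ng/mL, whereas the cells of the other libraries had been primed with LPS at an ultra-low or a high dose before that same dose. All 9 libraries thus carry the 100 ng/mL stimulus, and cells without LPS were not analysed here, so that no level given below can be assigned to LPS. BV-2 is a murine microglial cell line, immortalised with a retrovirus that carries oncogenes, and as 1 line it is a limited model of microglia in the brain. The labels do not say whether the 3 libraries came from separate cultures, so that the SD of the 3 values may be technical, and for the time from LPS to harvest the sources used here give no value.

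Microglia are the resident macrophages of the brain. They sense bacterial products through pattern recognition receptors, of which Tlr4 with its partners Cd14 and Ly96 binds LPS and signals through Myd88 to NF-kB. The outcome in macrophages is the transcription of cytokines, chemokines, enzymes of nitric oxide and itaconate synthesis and, through type I interferon, a set of antiviral genes. In the healthy brain microglia are told from other macrophages by genes such as P2ry12, Tmem119, Cx3cr1 and Sall1.

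The UP libraries held 26033356 (UP 4), 25649018 (UP 5) and 27802244 (UP 6) counts assigned to genes. Levels are given as RPKM, assigned reads scaled to gene length and to the library total, in the order UP 4, UP 5 and UP 6, followed where useful by the mean ± SD of the 3 libraries. A gene was called expressed at 1 RPKM or more in all 3 libraries and near 0 under 0.1 RPKM in all 3. Of 48526 genes, 10923 (22.5%) were expressed, 728 of them with 100 RPKM or more in all 3 libraries and 39 with 1000 or more. No count in any of the 3 was found for 28500 genes (58.7%). A further 4214 genes (8.68%) had a count but were under 0.1 RPKM in all 3. For a gene without a count, a count of 0 allows up to 3 counts, or 0.115, 0.117 and 0.108 RPM (counts scaled to the library total alone) in UP 4, UP 5 and UP 6, which covers counting error only. The expressed genes took 99.1% ± 0.0969 (SD, n = 3) of the counts. By symbol, 25095 of the 48526 genes are predicted genes or pseudogenes, whereas the lists below hold named genes. The share over all genes, given beside the lists, is therefore not a matched standard for them.

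UP 5 stood apart from the other UP libraries. Across 10658 genes with a mean count of 100 or more, Pearson's r of log2 RPM was 0.992 for UP 4 with UP 6, but 0.971 for UP 4 with UP 5 and 0.964 for UP 5 with UP 6 (genes are not independent replicates). A 2-fold or larger ratio of the highest to the lowest RPM among the 3 libraries was found for 646 of these genes (6.06%), and for 53 when UP 5 was left out. No pair of libraries agreed within sampling noise, with a chi-square per degree of freedom of 16.8 for the closest pair. The 3 were therefore not taken as 1 library deposited more than once, but this does not show that they came from separate cultures. Without UP 5, 11179 genes were expressed.

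The most abundant transcripts of UP cells encoded iron storage, lysosomal proteins, the translation apparatus and the chemokine Ccl3. The highest named gene was Fth1, the ferritin heavy chain, at 12079, 16631 and 13496 RPKM. Ftl1, the ferritin light chain, stood at 2824, 3736 and 2899 RPKM, and both chains together took 1.64% ± 0.268 (SD, n = 3) of all counts. In both ferritin genes UP 5 was the highest library. Of the exonic bases of Fth1 and Ftl1, 41.5% and 34.6% also lie in an exon of another gene of the GENCODE annotation, and processed copies exist in the genome, so that their values are uncertain in size.

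Cysteine and aspartic proteases of the lysosome were a main feature of the profile. Ctsk, cathepsin K, best known as the collagen-degrading enzyme of osteoclasts, reached 1983, 2918 and 1730.4 RPKM (mean 2211 ± 626, SD, n = 3), the fifth of the named genes by mean level. Ctsz was measured at 1967, 2511 and 2114 RPKM and Ctsd at 1154, 1572 and 1323 RPKM. Ctsl (785, 954 and 772 RPKM), Ctsb (744, 772 and 809 RPKM) and Ctss (532, 819 and 469 RPKM) followed below, while Ctsh was near 0. UP 5 was highest for Ctsk, Ctsz, Ctsd, Ctsl and Ctss, but not for Ctsb. The 22 cathepsin genes of the table took 1.55%, 1.96% and 1.60% of the counts of the 3 libraries. Psap, the precursor of the saposins that activate lysosomal hydrolases, lay at 1454, 1614 and 1572 RPKM with little spread.

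Translation was represented among the 20 highest named genes by Eef1a1 (4809.9, 5208 and 4955 RPKM) and Eef2 (1692, 1383 and 1871 RPKM), the elongation factors that bring tRNA to the ribosome and move it along the mRNA. They were joined by the ribosomal proteins Rplp1, Rpl8, Rplp0, Rps15, Rpl41 and Rpl4, with means from 1299 to 2368 RPKM. The 87 cytosolic ribosomal protein genes took 4.99%, 7.06% and 5.05% of the counts, and UP 5 was thus the high library for the group. The rest of the 20 were Apoe, the lipid carrier (1420.0, 2112 and 1526 RPKM), the chaperone Hsp90ab1 (1615, 1591 and 1584), B2m, the light chain of MHC class I (1431, 1837 and 1449), the actin gene Actb (1463, 1589 and 1514) and Gpnmb, a transmembrane glycoprotein of lysosome-rich phagocytes (1407, 1223 and 1573). Hsp90ab1 and Actb differed little among the libraries, Apoe and B2m were highest in UP 5 and Gpnmb was lowest there. The 37 mitochondrially encoded genes took 3.58%, 2.80% and 3.64% of the counts, the lowest share being in UP 5. Nuclear copies of mitochondrial genes held nearly the same counts as the mitochondrial genes themselves, for example 75645, 90900 and 85124 counts for Gm28661 beside 77584, 92488 and 86464 for mt-Co2, so that single mitochondrial genes are not described.

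**Figure D1:**
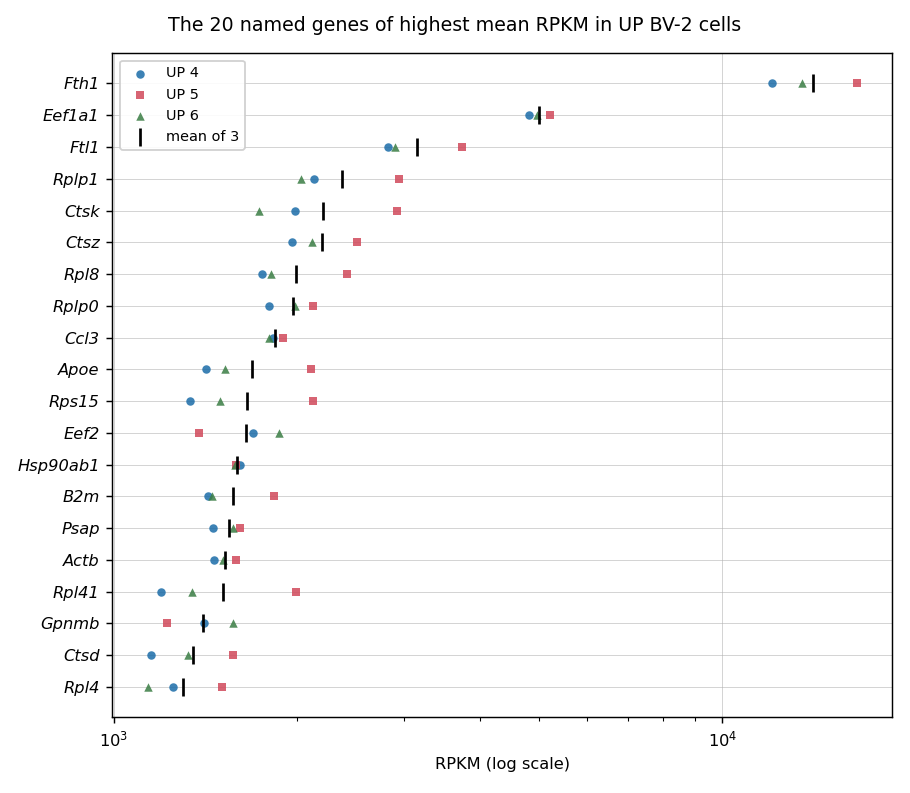
RPKM (log scale) of the 20 named genes with the highest mean in UP cells, with points for the 3 libraries and a bar for their mean. Fth1 stands at 12079, 16631 and 13496 RPKM, and UP 5 is the highest library for most of these genes but the lowest for Eef2 and Gpnmb.

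The label of the cells was checked with 59 genes of microglia and myeloid cells, of which 38 were expressed, 7 lay between and 14 were near 0 (39 were expressed without UP 5). General myeloid genes were high. Tyrobp, the adaptor through which Trem2 signals, was measured at 828, 976 and 838 RPKM, and Trem2 itself, a receptor for lipids and apoptotic cells, at 37.1, 49.7 and 39.2 RPKM. Csf1r, the receptor on which microglial survival depends, was measured at 122, 97.7 and 137 RPKM and Spi1, the transcription factor PU.1 of the myeloid lineage, at 199.6, 191 and 222 RPKM. The phagosomal protein Cd68 (621, 577 and 708 RPKM), the F4/80 antigen Adgre1 (212, 168 and 216 RPKM), the protease Lgmn (419, 459 and 465 RPKM), the Fc receptor chain Fcer1g (462, 621 and 508 RPKM) and the complement subunit C1qb (328, 429 and 359.8 RPKM) were all above 100 RPKM in each library. Irf8, a transcription factor of myeloid cells, was measured at 8.41, 8.02 and 9.49 RPKM.

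By contrast, several genes by which microglia of the brain are told from other macrophages were at or near 0. P2ry12, the ADP receptor that guides microglial processes, had 1 count in UP 4 and 0 in the others. Cx3cr1, the fractalkine receptor, had 1 count in UP 6 alone, Siglech 1 count in UP 5 alone, and Gpr34, Fcrls and the transcription factor Sall1 had none in the 3 libraries. Olfml3, Sparc, Slc2a5, Maf, Pros1, Nav3 and Hpgd were likewise under 0.1 RPKM in all 3. Tmem119, another of these defining genes, was expressed at low levels of 3.65, 3.91 and 4.06 RPKM (mean 3.87 ± 0.205, SD, n = 3). P2ry13 lay at 0.760, 0.817 and 0.640 RPKM, Tgfbr1, a receptor of TGF-beta, 0.835, 0.585 and 0.429 RPKM, and Mertk, a receptor for apoptotic cells, 1.31, 0.899 and 1.12 RPKM. Of the 19 surface genes of resting microglia, 8 were expressed, 4 lay between and 7 were near 0. Over all genes of the table, 22.5% were expressed. P2ry12 lies at chr3:59216271-59262985 and Tmem119 at chr5:113793729-113800396 in the GRCm38.p6 build.

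Aif1 (Iba1), an actin-bundling protein commonly used to stain microglia, varied most of the genes of this list with a mean count of 100 or more, at 6.39, 12.9 and 4.41 RPKM, and UP 5 was the high library. Ptprc (CD45), a phosphatase of blood-derived cells, was low at 6.06, 6.59 and 3.30 RPKM and Itgam (CD11b), an integrin of complement binding, at 6.95, 9.41 and 6.29 RPKM, with 67.4% of the exonic bases of Itgam shared with another gene.

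**Figure D2:**
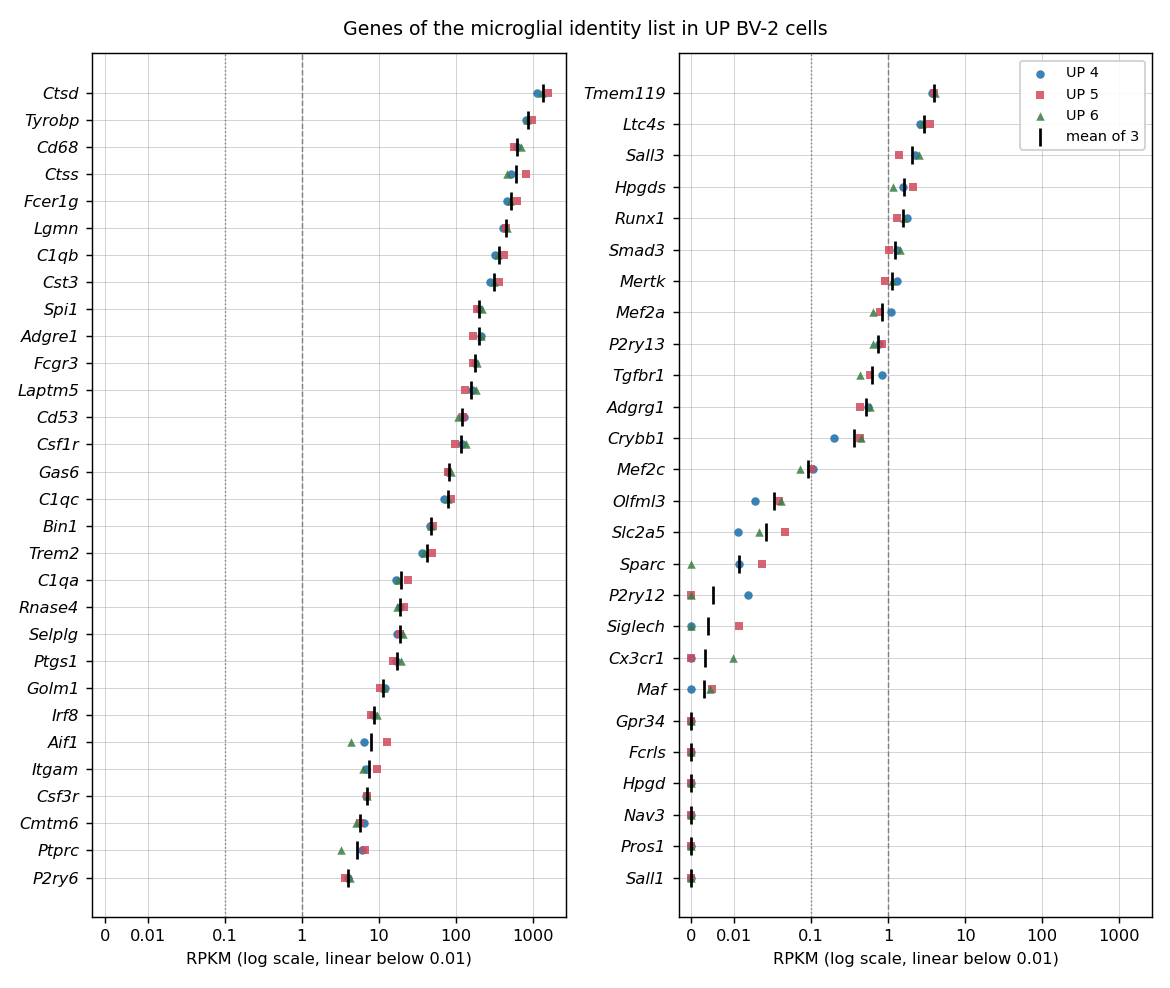
RPKM of genes of microglia and myeloid cells, ordered by mean, on a log scale that is linear below 0.01. Points show the 3 UP libraries, the bar their mean, and the dashed and dotted lines 1 and 0.1 RPKM; Tyrobp, Cd68 and Spi1 stand above 100 RPKM, and 6 genes had no count in any library.

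Few markers of other cells were expressed. Of 78 genes of neurons, glia, vessels, fibroblasts and other blood cells, 61 were near 0, 34 of them without any count. Expressed were 7 (8 without UP 5), against 22.5% of all genes. Of all genes, 58.7% had no count and a further 8.68% had a count but were under 0.1 RPKM in all 3. All 8 neuronal genes, all 6 fibroblast genes and the NK and mast cell genes were near 0, and Gfap, Aqp4, Rbfox3, Cldn5 and Mog had no count at all. The 7 expressed genes were Aldoc (40.6, 39.6 and 43.5 RPKM), a glycolytic enzyme used as an astrocyte marker, Aldh1l1 (1.00, 1.16 and 1.31), the VEGF receptor Flt1 (51.3, 35.0 and 51.3) and 4 macrophage or monocyte genes. Among the latter, Mrc1, the mannose receptor of border-associated macrophages, was measured at 95.5, 89.4 and 71.3 RPKM, the chemokine Pf4 at 51.3, 80.7 and 46.8 RPKM, Ms4a7 at 2.36, 4.93 and 1.79 RPKM and Chil3, a chitinase-like protein, at 89.8, 134 and 75.5 RPKM. Of the 6 listed genes of border-associated macrophages 3 were thus expressed, as was 1 of the 6 of monocytes. The rest, among them Lyve1, Cd163, Ccr2 and Ly6c2, were near 0. In bulk RNA, few cells of another type and little RNA per cell cannot be told apart.

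Genes that rise in activated or disease-associated microglia were present almost as a whole: 29 of 31 were expressed and 12 reached 100 RPKM in every library. Besides Fth1, Ctsz, Apoe and Gpnmb above, Lgals3 (galectin-3) was measured at 734, 1025 and 740.5 RPKM, Cd63, a tetraspanin of endosomes, at 409, 579.8 and 412 RPKM and the fatty acid-binding protein Fabp5 at 249, 241 and 266 RPKM. Cst7, a cystatin, lay at 98.4, 125 and 104 RPKM, Itgax (CD11c) at 45.5, 33.5 and 47.7 RPKM and Clec7a, the beta-glucan receptor dectin-1, at 46.6, 41.3 and 46.7 RPKM. UP 5 was the highest library for Lgals3, Cd63 and Cst7 and the lowest for Itgax and Clec7a. Axl, a phosphatidylserine-dependent receptor kinase, was at 0.778, 0.403 and 0.800 RPKM, and Ch25h, which makes 25-hydroxycholesterol, had 1 count in UP 6 alone.

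**Figure D3:**
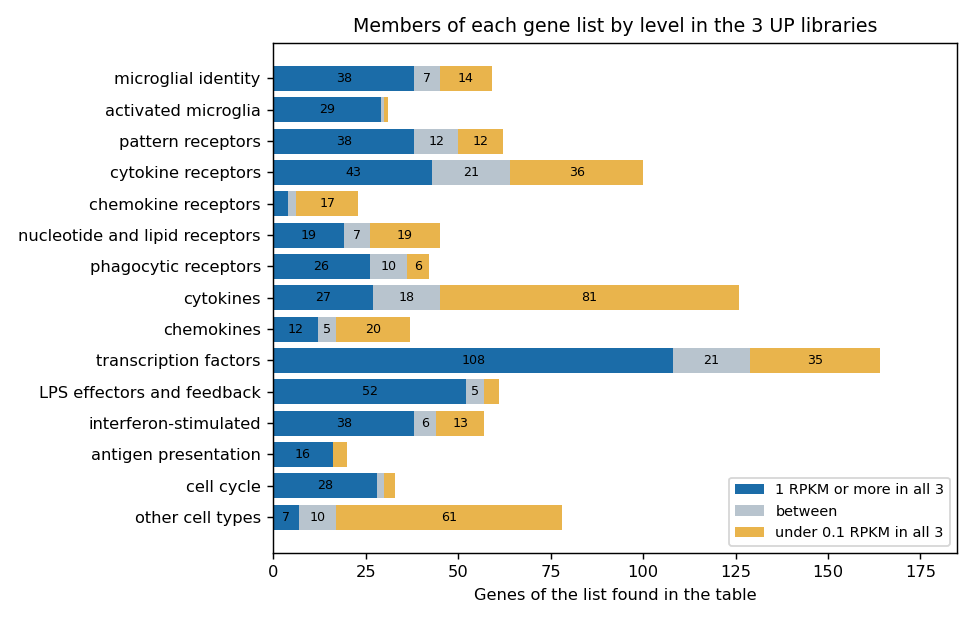
Number of members of each gene list (bars from 0) that were at 1 RPKM or more in all 3 UP libraries, under 0.1 RPKM in all 3, or between. Activated microglia genes were mostly expressed (29 of 31), against 22.5% of all genes. Near 0 were 17 of 23 chemokine receptors and 81 of 126 cytokines. Of all genes, 58.7% had no count and a further 8.68% had a count but were under 0.1 RPKM in all 3. Lists overlap in some members.

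Of 268 receptor genes examined, 130 were expressed (134 without UP 5), against 22.5% of all genes, 50 lay between and 88 were near 0. The LPS receptor itself was not abundant. Tlr4 was measured at 3.28, 2.87 and 2.41 RPKM and Ly96 (MD-2), the protein that holds the lipid part of LPS, at 1.81, 1.91 and 1.06 RPKM, whereas Cd14, which hands LPS over to them, reached 71.7, 72.4 and 66.7 RPKM. The adaptor Myd88 was steady at 50.3, 47.6 and 48.6 RPKM. Lbp, which carries LPS in serum, lay at 0.103, 0.0484 and 0.0670 RPKM. The highest Toll-like receptor was Tlr2, which binds bacterial lipoproteins, at 132, 109 and 134 RPKM, or a mean of 125 ± 13.9 RPKM (SD, n = 3). Its partners Tlr1 (27.0, 18.3 and 27.0 RPKM) and Tlr6 (4.73, 4.66 and 4.51 RPKM) and the endosomal nucleic acid sensors Tlr13 (21.9, 14.7 and 16.1 RPKM), Tlr9 (9.80, 3.83 and 10.4 RPKM) and Tlr7 (8.98, 6.71 and 5.90 RPKM) were lower. All 3 libraries thus placed Tlr2 far above Tlr4. Tlr3, Tlr5 and Tlr8 lay under 1 RPKM and Tlr11 and Tlr12 had no count.

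Among cytosolic sensors, Tmem173 (STING), which responds to cyclic dinucleotides, was highest at 41.3, 34.6 and 46.7 RPKM, followed by the inflammasome sensor Nlrp3 at 22.98, 15.2 and 20.4 RPKM. Dhx58 (6.25, 7.22 and 4.87 RPKM), Aim2 (6.98, 5.58 and 4.65 RPKM) and Nlrc5 (5.54, 3.59 and 5.48 RPKM) came next. Pycard (ASC), the adaptor that links Nlrp3 to caspase-1, had 0, 3 and 0 counts, and Ifih1 (MDA5), a sensor of double-stranded RNA, had none. Of the C-type lectins, the galactose-binding Mgl2 (186, 215 and 198 RPKM) was the highest, followed by Mrc1 above, Clec4a3 (47.8, 65.3 and 42.0 RPKM) and Clec10a (43.1, 52.7 and 46.0 RPKM). Marco, a scavenger receptor for bacteria, had the widest range of the listed receptors with a mean count of 100 or more and is given with the variation below.

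Cytokine receptors were led by Tnfrsf1b, the second TNF receptor, at 131, 113 and 137 RPKM. The other TNF receptor, Tnfrsf1a, was almost identical in the 3 libraries at 39.1, 39.4 and 39.6 RPKM. Csf2rb, the shared chain of the GM-CSF and IL-3 receptors, was measured at 70.2, 56.6 and 74.3 RPKM and its homologue Csf2rb2 at 26.9, 21.5 and 28.8 RPKM, which share sequence and may share reads. Ifngr2, of the interferon-gamma receptor, lay at 53.7, 40.1 and 51.4 RPKM, Ifngr1 at 6.49, 5.98 and 5.47 RPKM, and the type I interferon receptor chains Ifnar1 and Ifnar2 at 13.002, 8.26 and 12.2 and 10.3, 9.53 and 11.0 RPKM. The IL-10 receptor chains Il10ra (23.1, 20.9 and 23.6 RPKM) and Il10rb (17.9, 18.5 and 17.2 RPKM) were both expressed. Il1r1, the signalling receptor of IL-1, was low at 0.423, 0.349 and 0.350 RPKM. Of receptor kinases other than Csf1r, Flt1 was the highest, while Flt3, Kit and Met were near 0.

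Chemokine receptors formed the sparsest receptor group: 4 of 23 were expressed (5 without UP 5), against 22.5% of all genes. Another 17 were near 0, beside 58.7% of all genes without a count and 8.68% with a count but under 0.1 RPKM in all 3. The 4 expressed genes were Cxcr4 (8.18, 6.43 and 7.04 RPKM), the receptor of Cxcl12, Cxcr1 (5.23, 5.75 and 6.30), Cxcr2 (3.79, 2.57 and 3.60) and Ccr10 (2.69, 2.91 and 2.65). Ccr1, a receptor of Ccl3, was near 0 at 0.0678, 0.0551 and 0.0127 RPKM, and Ccr2, the receptor of Ccl2, had 1 count in UP 6 alone. The ligands were thus abundant (below) in cells with hardly any transcript of these receptors.

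Receptors of nucleotides and lipids were led by Gpr84, a receptor of medium-chain fatty acids, at 89.6, 82.3 and 103 RPKM. Gpr132 lay at 72.9, 63.5 and 75.3 RPKM, the niacin receptor Hcar2 at 55.9, 50.4 and 53.5 RPKM and the sphingosine-1-phosphate receptor S1pr2 at 28.5, 24.4 and 29.8 RPKM. The ATP-gated channels P2rx4 (14.2, 14.6 and 14.8 RPKM) and P2rx7 (6.92, 4.09 and 8.02 RPKM), the nucleotide receptors P2ry2 (9.68, 6.72 and 10.2 RPKM) and P2ry6 (4.06, 3.65 and 4.27 RPKM) and the adenosine receptors Adora2b (13.2, 13.5 and 11.3 RPKM) and Adora2a (4.38, 4.11 and 4.88 RPKM) were expressed. The formyl peptide receptors Fpr1 and Fpr2 had no count. Of the phagocytic receptors, all 6 Fc receptor genes were expressed, with Fcer1g above and Fcgr3 at 179, 168 and 191 RPKM the highest. Sirpa, the receptor of the CD47 signal, was measured at 341, 306 and 344 RPKM. The complement receptor chain Itgb2 lay at 65.1, 53.8 and 65.3 RPKM and C3ar1, the receptor of C3a, at 54.5, 44.96 and 54.2 RPKM. Timd4, Vsig4 and Cr2 had no count.

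Of 163 cytokine and chemokine genes, 39 were expressed, against 22.5% of all genes, and 101 were near 0, 79 of these without a count. Ccl3 (MIP-1alpha), which attracts monocytes, led the list with 1828, 1897 and 1799 RPKM (mean 1841 ± 50.0, SD, n = 3), a range of 1.05-fold. It lies at chr11:83647843-83649378 (GRCm38.p6). Of its exonic bases, 35.6% also lie in an exon of another gene, so that its value is uncertain in size. The related Ccl4 was measured at 462, 579 and 421 RPKM, the monocyte chemokine Ccl2 at 119, 219 and 101 RPKM and Pf4 at the levels above. Ccl7 (22.2, 34.9 and 17.0 RPKM), Ccl9 (24.9, 24.7 and 23.7 RPKM), Ccl12 (17.5, 34.9 and 11.3 RPKM) and Ccl5 (9.32, 14.2 and 6.82 RPKM) were lower. Cxcl10, an interferon-inducible chemokine, lay at 24.3, 24.98 and 18.9 RPKM and the neutrophil chemokine Cxcl2 at 3.23, 4.83 and 2.59 RPKM, whereas Cxcl1 had 0, 2 and 0 counts and Cxcl9 0, 1 and 0. Cxcl12, Cxcl13 and Ccl11 had no count.

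Tnf, the prototypical cytokine of the LPS response, was measured at 319.5, 285 and 324 RPKM, or 309.5 ± 21.5 RPKM (SD, n = 3), at chr17:35199367-35202007 (GRCm38.p6). Il1b reached 163, 238 and 143 RPKM and Il1a 69.0, 61.9 and 54.3 RPKM, while Il1rn, the natural antagonist of their receptor, was at 8.17, 6.85 and 6.99 RPKM. For Tnf UP 5 was the lowest library, for Il1b the highest. Il6 was near the limit of detection with 1, 8 and 2 counts (0.0158, 0.128 and 0.0296 RPKM), Il10 had 0, 1 and 0 counts, and Il12a, Il12b, Il33 and Csf2 had none. Tnf transcripts were therefore present at high levels in libraries that held almost no Il6 or Il10. Il23a (2.60, 2.70 and 2.43 RPKM), Il18 (2.37, 4.81 and 2.17 RPKM), Osm (9.43, 9.71 and 8.60 RPKM) and Csf3 (8.35, 8.53 and 9.09 RPKM) were expressed at low levels. Of 21 interferon genes, 20 were near 0 and Ifnb1 had 12, 2 and 4 counts (0.615, 0.104 and 0.192 RPKM).

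Growth factors and related secreted proteins were led by Spp1 (osteopontin), a ligand of integrins and CD44, at 539, 848 and 317 RPKM, by Mif, a macrophage cytokine, at 475, 633 and 530.2 RPKM and by Grn (progranulin) at 422, 477 and 472 RPKM. Spp1 differed more among the libraries than any other cytokine outside the chemokines with a mean count of 100 or more, by 2.68-fold, whereas Grn differed by 1.13-fold. Gas6, the ligand of Mertk and Axl, was measured at 80.7, 80.3 and 87.8 RPKM, Csf1, the ligand of Csf1r, at 71.7, 65.8 and 70.7 RPKM, Tgfb1 at 49.7, 45.5 and 57.3 RPKM and Igf1 at 40.9, 49.3 and 35.0 RPKM. Csf1 and its receptor were thus both above 60 RPKM in each library, while Il34, the other ligand of Csf1r, was at 0.196, 0.199 and 0.184 RPKM. Gdf15, a stress-induced cytokine, lay at 39.5, 32.2 and 38.2 RPKM. Bdnf, Hgf and Fgf2 had no count.

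**Figure D4:**
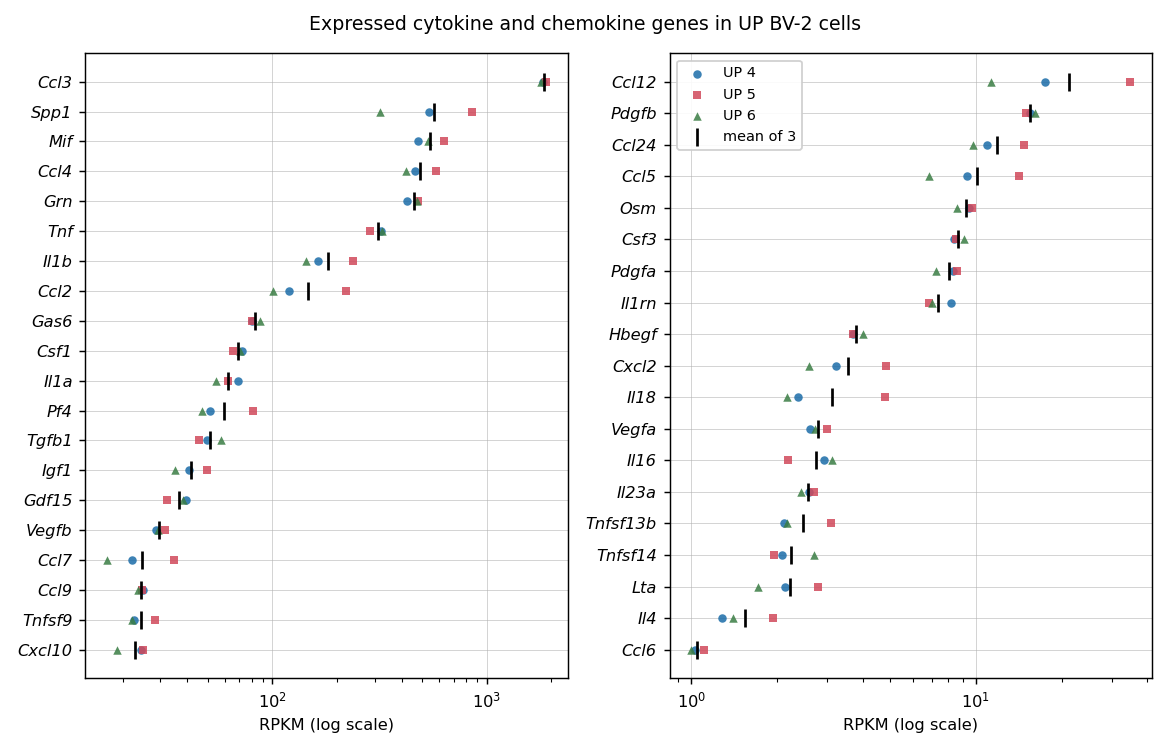
RPKM (log scale) of the 39 expressed cytokine and chemokine genes in the 3 UP libraries, with the mean as a bar; the panels continue 1 ranking and have different axes. Ccl3 and Tnf lie close together across the libraries (1.05-fold and 1.14-fold), whereas UP 5 stands highest for Spp1, Ccl2, Ccl7 and Ccl12.

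Effector genes of the LPS response and its feedback were expressed in 52 of 61 cases, against 22.5% of all genes. Acod1, which makes the antimicrobial metabolite itaconate, was measured at 591, 469 and 532 RPKM, Hmox1, the haem-degrading enzyme, at 400.3, 424 and 396 RPKM and Cyba, a subunit of the phagocyte NADPH oxidase, at 1008, 1391 and 1109 RPKM. Arg1, which turns arginine into ornithine, reached 176, 335 and 194 RPKM, while Nos2, the inducible NO synthase that uses the same substrate, was at 4.00, 8.33 and 3.43 RPKM. In all 3 libraries Arg1 was thus well above Nos2, and UP 5 was the highest library for both. Ptgs2 (COX-2) lay at 4.56, 5.23 and 2.79 RPKM, below Ptgs1 at 17.1, 15.5 and 19.4 RPKM. Of the secreted proteins, complement C3 (241, 179 and 263 RPKM), the plasminogen activator Plau (84.3, 103 and 91.8 RPKM) and serum amyloid Saa3 (85.01, 118 and 67.8 RPKM) were high and Lcn2 was low (2.24, 2.57 and 2.098 RPKM). The feedback regulators included Sqstm1 (371, 323 and 387 RPKM), an autophagy receptor, Nfkbia (224, 223 and 217 RPKM), the inhibitor of NF-kB, and Ier3 (187, 198 and 166 RPKM). Nfkbia was steady among the libraries, and Tnfaip3 (A20), which edits ubiquitin on the same pathway, was at 10.1, 7.34 and 8.51 RPKM.

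Genes of antigen presentation differed by class. All 11 genes of the class I pathway were expressed, with B2m above, H2-D1 at 340.1, 367 and 351 RPKM and H2-K1 at 275, 332 and 264 RPKM, which are close in sequence and may share reads. Of the 9 genes listed for class II, which include Cd80 and Cd86, 5 were expressed. Cd74, the invariant chain, was high at 550.0, 772 and 585 RPKM. H2-DMb1 (21.2, 23.9 and 22.9 RPKM) and H2-DMa (2.76, 2.54 and 3.00 RPKM) were also expressed. However, H2-Ab1 and H2-Eb1 had no count, H2-Aa had 1, 2 and 0 counts and their activator Ciita had 0, 1 and 0. The costimulatory molecules Cd80 (2.53, 2.82 and 1.63 RPKM) and Cd86 (1.19, 1.62 and 1.21 RPKM) were low, and Cd40 was measured at 29.4, 30.7 and 29.98 RPKM.

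Of 164 transcription factor genes, 108 were expressed, against 22.5% of all genes, and 35 were near 0. The highest was Atf4, the effector of the integrated stress response, at 356, 424 and 356 RPKM, followed by Spi1 above, Atf3, an LPS-inducible repressor, at 163, 146 and 152 RPKM and Irf5, which drives inflammatory cytokines, at 120.2, 110.3 and 126 RPKM. These 4 were the transcription factors with 100 RPKM or more in each library. In the NF-kB family, Nfkb2 (61.0, 51.2 and 63.0 RPKM) and Rela (46.0, 39.6 and 49.1 RPKM) stood above Nfkb1 (22.3, 18.2 and 20.1 RPKM), Relb (13.2, 13.6 and 13.3 RPKM) and Rel (3.07, 2.25 and 1.95 RPKM). Junb (44.9, 39.3 and 44.9 RPKM), Jun (40.7, 32.9 and 37.9 RPKM) and Fosl1 (29.9, 24.7 and 32.8 RPKM) led AP-1, while Fos was at 2.30, 1.91 and 2.32 RPKM. Stat6, which conveys IL-4 signals, was the highest STAT at 43.3, 34.2 and 47.1 RPKM. Of other myeloid factors, Id2 (58.6, 68.6 and 46.6 RPKM), Nfil3 (40.2, 39.1 and 45.7 RPKM), Cebpe (36.1, 42.3 and 41.7 RPKM) and Cebpb (34.4, 42.6 and 34.8 RPKM) were also expressed.

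Trp53 (55.5, 54.7 and 61.5 RPKM), Nfe2l2 (57.9, 56.3 and 48.2 RPKM), which controls antioxidant genes, and Srebf2 (54.6, 34.2 and 60.7 RPKM), which controls sterol synthesis, led the stress and metabolism group. Hif1a, which responds to low oxygen, was at 14.1, 10.9 and 8.97 RPKM. Of 27 nuclear receptors 9 were expressed, against 22.5% of all genes. Among them were the retinoid X receptor Rxrb at 17.98, 17.99 and 19.98 RPKM and the liver X receptor Nr1h3 at 9.50, 10.6 and 9.77 RPKM. Among cell cycle factors E2f4 (63.1, 56.9 and 65.4 RPKM) and E2f6 (56.8, 40.6 and 54.6 RPKM) were highest. Of 33 proliferation genes, 28 were expressed, against 22.5% of all genes. The kinase Cdk4 was steady at 191, 201 and 198 RPKM, and Pcna (95.6, 97.8 and 79.4 RPKM) and Cdc20 (102, 96.1 and 109 RPKM) were high. Of the inhibitors, Cdkn1a was measured at 83.3, 76.4 and 91.7 RPKM, whereas Cdkn2a and Cdkn2b had no count. Myc, a driver of growth, was measured at 1.01, 0.930 and 0.767 RPKM.

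PI3K, to which the study gave attention, makes the lipid signal that activates Akt, and its genes were looked up after the values had been seen. Pik3cg, the catalytic subunit p110gamma, was measured at 7.89, 5.49 and 7.51 RPKM. In each library it stood below Pik3cd (18.8, 15.1 and 20.004 RPKM) and Pik3cb (11.1, 7.43 and 10.2 RPKM) and above Pik3ca (1.91, 1.60 and 1.39 RPKM). Across different libraries the values of Pik3cg and Pik3cb overlapped, with means of 6.96 ± 1.29 and 9.56 ± 1.90 RPKM (SD, n = 3). The regulatory subunit Pik3r5, a partner of p110gamma, was at 24.9, 18.3 and 24.19 RPKM. Downstream of these kinases, Akt1 (145, 118 and 153 RPKM) far exceeded Akt2 (12.6, 9.59 and 14.1 RPKM). Of the exonic bases of Akt1, 52.0% also lie in an exon of another gene, against 0% for Akt2, so that the value of Akt1 is uncertain in size.

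Interferon-stimulated genes, which carry antiviral functions, were partly expressed: 38 of 57 reached 1 RPKM in all 3 libraries, against 22.5% of all genes, and 13 were near 0. Bst2 (tetherin), which holds back budding viruses, was highest at 204, 292 and 190.3 RPKM, followed by Slfn2 (170.3, 186 and 153 RPKM), Oasl1 (105, 101 and 104 RPKM), the immunoproteasome subunit Psmb8 (45.8, 69.7 and 46.4 RPKM) and Oas1a (38.9, 49.5 and 40.6 RPKM). Isg15, a ubiquitin-like modifier, lay at 24.9, 38.2 and 15.5 RPKM. Ifi44l, Cmpk2, Ddx60 and Gbp4 had no count. The interferon-stimulated response element is the sequence to which the transcription factor complex of type I interferon binds in the promoters of such genes. Promoter windows of 300 bases across the start site were taken from RefSeq (GRCm38.p6), and the letters GAAA followed, after 2 bases of any kind, by GAAA again were searched on both strands, overlapping matches included. This motif was found in 1131 of 32851 promoters (3.44%), in 1079 of 27025 genes with a promoter (3.99%) and in 24 of the 43 listed interferon-stimulated genes with a promoter (55.8%). A match is a description of the sequence and shows no binding. The promoters of Ifit1, which binds foreign RNA, Ifit3 and Isg15 are shown as examples that hold the motif, with the matching letters on either strand in capitals. The levels of these genes differed by 2-fold or more among the UP libraries. So did those of Ifit2 (3.71-fold) and Isg20 (2.25-fold), none of whose promoter windows held a match. Ifit3b (2.34-fold) had a match, and for Ifi204 (3.98-fold) and Rtp4 (2.67-fold) there was no promoter window. Ifit1 and Ifit3 each hold 2 matches and Isg15 holds 3, which overlap in part. They lie at chr19:34640639-34640938 on the plus strand (Ifit1), chr19:34583279-34583578 on the plus strand (Ifit3) and chr4:156200769-156201068 on the minus strand (Isg15).
Ifit1: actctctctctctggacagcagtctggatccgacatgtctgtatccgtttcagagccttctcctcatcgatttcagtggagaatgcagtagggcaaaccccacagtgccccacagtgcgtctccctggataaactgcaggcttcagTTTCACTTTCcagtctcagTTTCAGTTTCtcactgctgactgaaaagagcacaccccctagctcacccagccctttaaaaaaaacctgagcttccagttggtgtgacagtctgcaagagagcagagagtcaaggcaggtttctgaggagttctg
Ifit3: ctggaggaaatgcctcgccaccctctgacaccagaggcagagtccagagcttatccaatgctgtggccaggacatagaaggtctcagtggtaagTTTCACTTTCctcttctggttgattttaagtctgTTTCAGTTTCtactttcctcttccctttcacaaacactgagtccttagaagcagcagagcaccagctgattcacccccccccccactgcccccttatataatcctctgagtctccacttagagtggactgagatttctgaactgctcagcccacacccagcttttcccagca
Isg15: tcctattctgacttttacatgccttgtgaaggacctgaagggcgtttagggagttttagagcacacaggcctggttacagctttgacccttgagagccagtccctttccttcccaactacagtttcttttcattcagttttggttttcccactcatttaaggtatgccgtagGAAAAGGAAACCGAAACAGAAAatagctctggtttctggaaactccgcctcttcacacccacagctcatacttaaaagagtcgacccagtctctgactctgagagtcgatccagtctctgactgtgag

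Of the 36 interferon-stimulated genes with a mean count of 100 or more, 8 had a range of 2-fold or more, or 22.2% against 6.06% of all genes. Ifit1 was measured at 6.75, 11.1 and 2.75 RPKM, a range of 4.04-fold (3.46 to 4.74, exact 95% interval for counting error). Ifi204, a DNA-binding protein of the same response, was measured at 5.58, 10.2 and 2.56 RPKM and Ifit2 at 4.35, 6.62 and 1.79 RPKM. Isg15 and Ifit3 (7.31, 11.0 and 4.58 RPKM) showed the same order, with UP 5 highest, UP 4 between and UP 6 lowest, although Ifit3 and its close copy Ifit3b may share reads. UP 5 was the highest library for 24 of the 36 and UP 6 the lowest for 24, as compared to 39.4% and 33.5% of all genes with a mean count of 100 or more. The median log2 deviation of the 36 genes from their own mean was 0.06 in UP 4, 0.23 in UP 5 and −0.27 in UP 6, against 0.04, −0.02 and 0.00 over all genes. Irf9 and Stat2, parts of the interferon-activated transcription factor complex, did not follow this order (5.20, 4.09 and 5.14 and 11.8, 10.3 and 10.1 RPKM). Ifnb1 was highest in UP 4, on 12 counts.

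The chemokines varied in a similar manner. All 11 with a mean count of 100 or more were lowest in UP 6 and 10 were highest in UP 5, and 4 of them (36.4%) had a range of 2-fold or more: Ccl12 (3.09-fold, 2.58 to 3.70), Ccl2 (2.18-fold, 2.09 to 2.27), Ccl5 (2.08-fold, 1.74 to 2.51) and Ccl7 (2.06-fold, 1.81 to 2.34). When gene length and GC content were removed from each library by a linear fit, a setting chosen after seeing the data, 0 of the 11 chemokines and 5 of the 36 interferon-stimulated genes had a range of 2-fold or more, against 2.89% of all genes. With that correction UP 5 was highest for 8 of the 11 chemokines and for 29 of the 36 interferon-stimulated genes, against 43.5% of all genes. UP 6 was then lowest for 6 of the 11 chemokines and for 27 of the 36 interferon-stimulated genes, against 30.1% of all genes. Without the correction, 5 of 117 transcription factors (4.27%) had a range of 2-fold or more, against 6.06% of all genes. On that same uncorrected scale receptors did so in 10 of 135 cases, microglial identity genes in 1 of 40 and proliferation genes in 2 of 28. With the correction, 1 of the 117 transcription factors did so.

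The named genes with the widest ranges among the UP libraries, at a mean count of 100 or more, were Cenpe, Marco, Nol8, Smc3, Ppig, Ifit1, Tpr, Ifi204, Smc2, Upf3b, Casp4, Spen, Ktn1, Eif5b, Ifit2, Scd4, Pdpr, Med12, Ssb and Pnn. Cenpe, a kinesin of the mitotic kinetochore, was measured at 0.735, 1.47 and 0.325 RPKM (4.50-fold, 3.51 to 5.84). Marco was measured at 5.59, 16.7 and 3.85 RPKM (4.34-fold, 3.72 to 5.08) and Casp4 (caspase-11), which senses cytosolic LPS, at 2.44, 5.18 and 1.34 RPKM (3.87-fold, 3.20 to 4.71). In these, as in the cohesin and condensin subunits Smc3 and Smc2, the nuclear pore protein Tpr and the splicing-related Pnn, UP 5 was the highest and UP 6 the lowest library. The reverse order of UP 5 was seen in Spen, a repressor of transcription, at 4.83, 1.34 and 5.14 RPKM (3.82-fold, 3.46 to 4.23), in Med12, a subunit of the Mediator complex, at 12.3, 3.40 and 12.3 RPKM (3.63-fold, 3.33 to 3.95), and in Scd4 and Pdpr, where UP 5 was the lowest and the others lay close together.

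Among genes with a mean count of 100 or more, the member with the widest range in other lists was Il12rb2, a chain of the IL-12 receptor, for cytokine receptors (7.21, 2.40 and 7.34 RPKM), Mki67 for proliferation (5.95, 8.14 and 2.61 RPKM), Tnip3, an inhibitor of NF-kB, for feedback regulators (2.21, 4.50 and 1.41 RPKM), Tlr9 for Toll-like receptors and Lilrb4a, an inhibitory receptor, for phagocytic receptors (60.8, 123 and 43.6 RPKM, with 98.9% of its exonic bases shared with another gene). Mki67 was highest in UP 5. By contrast, UP 5 was lowest for 18 of the 28 proliferation genes, against 46.1% of all genes with a mean count of 100 or more. Genes with hardly any difference included Slc2a1, the glucose transporter (40.4, 40.6 and 40.6 RPKM), Hdgf (287, 286 and 288 RPKM) and Tnfrsf1a.

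The 646 genes with a range of 2-fold or more fell into few patterns. UP 5 was highest and UP 6 lowest for 307, UP 4 highest and UP 5 lowest for 151, and UP 6 highest and UP 5 lowest for 141, whereas UP 6 highest and UP 4 lowest was not seen. UP 5 was the highest library for 328 of the 646 and the lowest for 292. The patterns differed in gene length and GC content: the 307 genes had a median length of 2514 bases and a median GC content of 43.7%, the 151 genes 9368 bases and 47.7% and the 141 genes 7965 bases and 53.9%, as compared to 3608 bases and 50.4% for all genes. With the genes divided into 5 bins of length, the median log2 deviation of UP 5 was 0.24 in the bin of the shortest genes and −0.24 in that of the longest. In the lowest of 5 bins of GC content, the median of UP 6 was −0.19 and that of UP 4 0.14. After both properties were removed by the linear fit, 307 genes kept or gained a range of 2-fold or more, 251 of them among the 646. On the log2 scale the range of Marco was 2.12 before and 2.15 after, that of Ifit1 2.02 and 1.72, that of Cenpe 2.17 and 2.19 and that of Spen 1.93 and 1.29. What set the libraries apart was not tested.

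**Figure D5:**
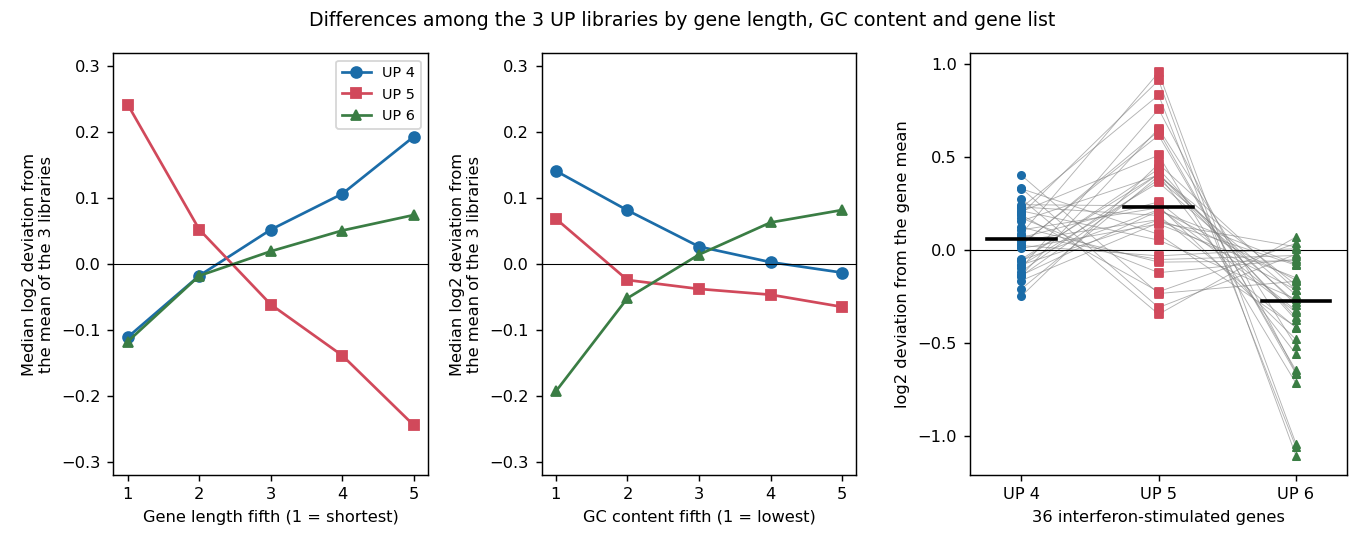
Left and middle, median log2 deviation of each UP library from the mean of the 3, for genes in 5 bins of length (from 0.24 to −0.24 in UP 5) and of GC content. Right, the deviation of each of the 36 interferon-stimulated genes with a mean count of 100 or more, joined by lines, with the median as a bar (0.23 in UP 5 and −0.27 in UP 6).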

How the data were processed

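RNA of BV-2 cells was extracted with QIAzol and libraries were prepared by the TruSeq stranded mRNA protocol. Per the submitters' processing notes, base calls were converted with bcl2fastq 1.8.4, reads were aligned with TopHat2 2.1.0 and reads per gene were counted with featureCounts 1.5.0. The build is GRCm38 in these notes and another one in the supplement, and the sources used here do not say if strand was used in counting. The counts deposited by the authors are whole numbers of reads for each gene, not normalized. The RPM deposited by the authors are these counts scaled to the library total. The RPKM deposited by the authors are the RPM per kilobase of gene.

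The 3 UP libraries were read from the deposited tables by their column titles. No groups were compared and no test was made. Intervals of a ratio of 2 libraries are exact 95% binomial intervals (scipy 1.17.1 in Python 3.11.15), which cover counting error only, since reads without molecular identifiers are not independent molecules. They were checked on counts simulated with counting error alone, for pairs of libraries fixed in advance. The ranges reported here take the highest and lowest of 3 libraries after the values were seen, which that check does not cover. TMM and RLE factors came from edgeR 4.0.16 in R 4.3.3. Gene length is RPM over RPKM, and GC content came from the GENCODE vM39 transcripts for 99.6% of the 10658 genes. Exonic overlap came from that annotation, on either strand. Where a symbol had several gene IDs, the one with most counts was used.

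Named are the 20 genes of highest mean RPKM (no predicted or mitochondrial genes), per list and role the highest members and those near 0 that define it, the 20 genes with the largest ranges, the widest of each list, and genes that the study measured elsewhere. The gene lists and members were chosen with earlier results of these data known, and genes picked after their values were seen are named as such. Alternatives were other thresholds of expression, TPM, other count minimums, TMM and RLE scaling, leaving out each library and, chosen after seeing the data, a linear correction for gene length and GC content. A few genes of the lists are counted but not reported here by name.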

Additional observations from a re-analysis of the deposited data

How the results depend on the processing

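Of 121 alternative values, 115 stayed within 1.5 times the reported count or within 1 SD of the reported share. The thresholds of 0.5 and 2 RPKM, a threshold of 1 TPM, a mean of 1 RPKM and leaving out a library kept the numbers of expressed genes and list members within that limit. Leaving out 1 library at a time gave 10983 to 11179 expressed genes, 130 to 134 receptors, 39 to 41 cytokines and chemokines, 38 to 39 microglial identity genes and 108 to 110 transcription factors. The share of counts in the 20 genes with most counts was 10.8% on average (10.6% to 10.9% leaving out 1 library) and 9.60% without mitochondrially encoded genes. The 646 genes with a range of 2-fold or more became 626 with TMM scaling (615 of them shared), 1089 and 307 with a mean count of at least 20 and of at least 500, which test more and fewer genes, 307 with gene length and GC content removed (chosen after seeing the data), and 53 to 545 leaving out 1 library, namely 53 without UP 5, 298 without UP 6 and 545 without UP 4. No paired analysis was possible because no groups were compared. Depth limits the genes with few counts: at 1 to 3 counts a level cannot be told from 0, and the number of libraries limits every SD to 3 values.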

Other observations

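Genes of osteoclasts, bone-resorbing cells of the myeloid lineage, were looked up after the level of Ctsk had been seen, so that the choice rests on these values. Of 13 such genes, 10 were expressed, against 22.5% of all genes. The 10 include Ctsk itself, which prompted the look-up. Acp5, tartrate-resistant acid phosphatase, was measured at 157, 168 and 158 RPKM in UP 4, UP 5 and UP 6, the proton pump subunit Tcirg1 at 79.8, 70.5 and 83.7 RPKM and the cell fusion protein Dcstamp at 16.6, 18.6 and 17.1 RPKM. Ocstamp (2.96, 2.38 and 3.51 RPKM), Atp6v0d2 (6.87, 6.16 and 4.75 RPKM) and Nfatc1 (4.34, 2.43 and 4.42 RPKM), the leading transcription factor of osteoclasts, were low. Itgb3 lay at 0.0846, 0.0793 and 0.165 RPKM and Calcr, the calcitonin receptor, had no count.

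Rhox5, a homeobox gene of the X-linked reproductive cluster, was measured at 905, 1581 and 764 RPKM, whereas 8 other genes of the cluster (Rhox1, Rhox4b, Rhox6, Rhox8, Rhox9, Rhox10, Rhox12 and Rhox13) had no count in the UP libraries. This gene too was chosen after its values were seen.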
